A study of Homo sapiens with 17 samples.

Results

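Of 267660 peaks in 8 CUT&RUN peak lists, 817 (0.305%) lay on 54 sequences of the human genome assembly that are not chromosomes 1 to 22, X or Y. Members were taken from every list by the name of the sequence alone, and no signal, width or other value of a peak entered the rule. The 54 sequences were 29 unlocalized contigs, which are assigned to a chromosome but not to a place on it and whose names end in "random", with 487 peaks, and 25 unplaced contigs, which are assigned to no chromosome and whose names begin with "chrUn", with 330 peaks. There were 0 peaks on the mitochondrial genome, on alternate haplotypes or on a sequence with any other kind of name.

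The cells were Nthy-ORI, a human cell line derived from normal thyroid epithelium and immortalised. CUT&RUN uses an antibody to direct a nuclease to a protein in nuclei and sequences the DNA that is released around it. Cells were starved of hormone for 24 hours in charcoal-stripped serum and then treated with 10 nM of T3, the active form of thyroid hormone, or with the NaOH vehicle. The label of each library gives 6 hours of treatment, although the protocol text also names 24 hours. The antibodies were to thyroid hormone receptor beta (TRβ), BRG1, ARID1A and PBRM1, and every antibody was used in either condition on 2 libraries, from which 1 list of the peaks found in both was made, giving 8 lists. No label says that the libraries came from separate cultures, and a difference between 2 lists has no replicate check. Read depth is not known from the lists. The 1 IgG library was not analysed here, so the background at these contigs without a specific antibody is not known.

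TRβ is a nuclear receptor that binds DNA with or without its hormone and recruits different partners in each state. BRG1 (SMARCA4) is an ATPase that drives both the BAF and the PBAF chromatin remodeling complexes. ARID1A is a subunit found in BAF, and PBRM1 is a subunit found in PBAF. Unlocalized and unplaced contigs are rich in repeats that could not be assembled into chromosomes, such as satellite DNA, and some hold copies of the ribosomal DNA repeat. That repeat is present in many near-identical copies on the short arms of the acrocentric chromosomes and encodes the 45S precursor, which is cut into the 18S, 5.8S and 28S ribosomal RNAs. A read from such a repeat can align to several copies, and how the authors placed those reads is not given in the sources used here. A peak on a contig is therefore described by the copy on which the authors' files put it, which need not be the copy the DNA came from.

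No contig sequence was used here. The chromosome 21 copy of the 45S gene RNA45SN1, which is a comparison and not a member, has 2 microRNA hairpins in RefSeq (GRCh38.p14) that mark 2 points of the repeat to which the peaks below are referred. They are shown 5′ to 3′ on the plus strand as RNA, with the mature microRNAs in capitals. MIR6724-4 (chr21:8432530-8432621) lies from 692 to 601 bp before the 45S start and is 83.7% G or C. MIR10396B (chr21:8436324-8436374) lies from 3102 to 3152 bp after that start and is 86.3% G or C.
MIR6724-4: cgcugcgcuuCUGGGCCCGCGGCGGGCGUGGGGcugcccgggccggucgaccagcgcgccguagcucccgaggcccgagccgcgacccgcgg
MIR10396B: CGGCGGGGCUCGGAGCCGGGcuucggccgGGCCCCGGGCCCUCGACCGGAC

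At RNA45SN1 the first of these lay under a peak in 6 of 8 lists and the second in 3. At the same distance from the 45S start on the contig copies, a peak covered the place of MIR6724-4 in 4 lists at RNA45SN4 and in 5 lists at RNA45SN5. A peak overlapped the place of MIR10396B in 4 lists at each of these contig copies. At RNA45SN4 the ARID1A peak with T3 ended 3138 bp after the start and so overlapped only part of that place. Whether the hairpin sequences are identical on the contigs was not tested.

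TRβ had the highest share of its peaks on contigs in both conditions, and BRG1 and PBRM1 had the lowest. With vehicle, 25 of 1437 TRβ peaks (1.74%, exact 95% interval 1.13 to 2.56) were on contigs. With T3 it was 75 of 7283 (1.03%, 0.811 to 1.29). For ARID1A the share was 246 of 49267 with vehicle (0.499%, 0.439 to 0.566) and 203 of 41913 with T3 (0.484%, 0.420 to 0.556). For BRG1 it was 94 of 64393 with vehicle (0.146%, 0.118 to 0.179) and 63 of 56001 with T3 (0.112%, 0.0865 to 0.144). For PBRM1 it was 9 of 9124 with vehicle (0.0986%, 0.0451 to 0.187) and 102 of 38242 with T3 (0.267%, 0.218 to 0.324). These Clopper-Pearson intervals cover counting error over peaks only. The TRβ share was 17.6 times that of PBRM1 with vehicle and 9.15 times that of BRG1 with T3, and in each condition the TRβ interval lay above those of the other 3 antibodies. With vehicle this rested on peaks of weaker agreement: with the irreproducible discovery rate (IDR), which measures how well the 2 libraries rank a peak alike, held to 0.01 in place of 0.05, the TRβ vehicle share was 1 of 202 (0.495%, 0.0125 to 2.73), beside 0.446% for ARID1A (0.365 to 0.541), and the intervals overlapped. With T3 it was 34 of 3451 (0.985%, 0.683 to 1.37) for TRβ and 0.429% (0.352 to 0.519) for ARID1A.

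**Figure D1:**
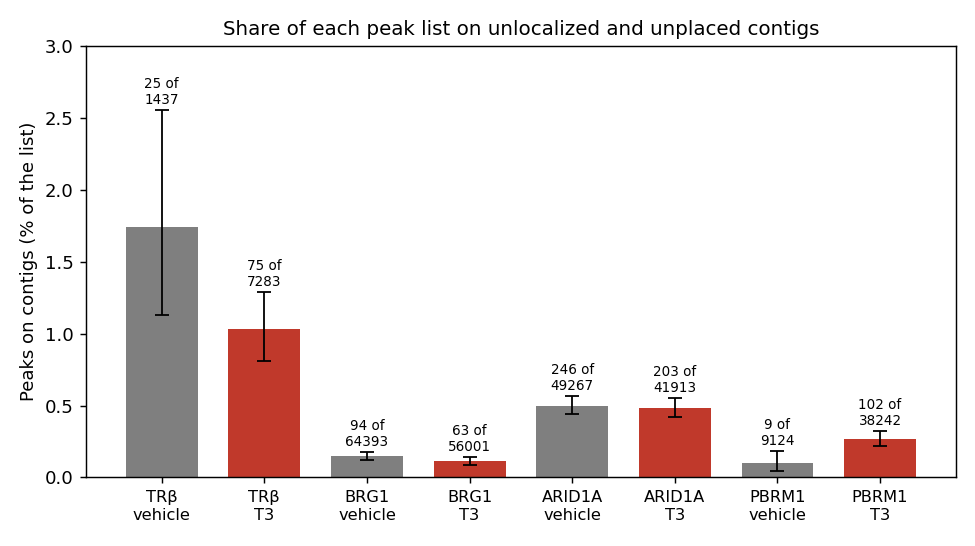
The bars give the percent of each list's peaks that lie on unlocalized and unplaced contigs (grey, vehicle; red, T3), with exact 95% binomial intervals as error bars and the counts above them. The TRβ bars, at 1.74% and 1.03%, stand above all others, and PBRM1 is the antibody whose T3 bar is above its vehicle bar.

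The share changed with T3 in no common direction. It was 1.69 times as high with vehicle as with T3 for TRβ and 1.30 times as high for BRG1, it was within 1.03-fold for ARID1A, and it was 2.70 times as high with T3 as with vehicle for PBRM1. The mean log2 ratio of T3 over vehicle across the 4 antibodies was 0.06 (exact two-sided permutation of signs, p = 1; with 4 antibodies this test cannot reach 0.05). The length of the lists moved as well: TRβ had 5.07 times, and PBRM1 4.19 times, as many peaks in its T3 list as in its vehicle list. Its part in these shares was not tested.

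Contig peaks were concentrated on few contigs. The 3 contigs with the most peaks held 258 of 817 (31.6%), and the 5 with the most held 341 (41.7%). Peaks were most numerous on chr14_GL000225v1_random (126 peaks), chr22_KI270733v1_random (71), chrUn_GL000220v1 (61), chrUn_GL000216v2 (42) and chrUn_GL000195v1 (41). The second and the third of these hold the ribosomal RNA genes described below. The number of contigs with a peak was 12 for TRβ with vehicle and 28 with T3. It was 32 and 27 for BRG1; ARID1A had 43 and 39, and PBRM1 had 8 and 30.

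**Figure D2:**
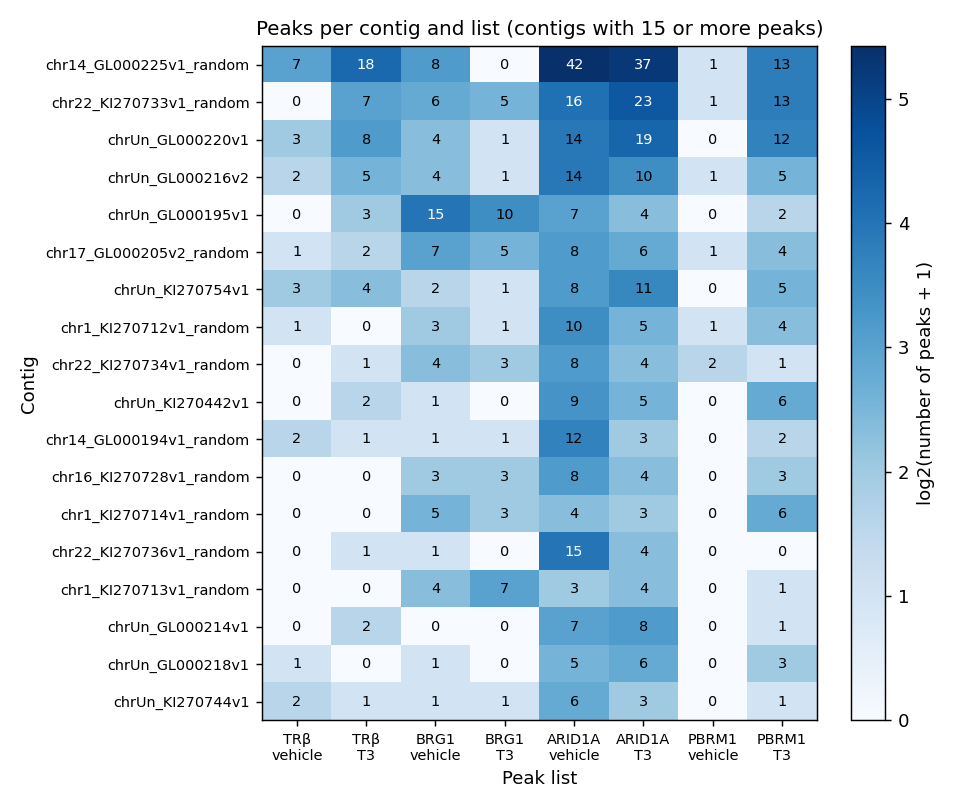
Each cell gives the number of peaks on a contig (rows, the contigs with 15 or more peaks) in a list (columns), and darker blue marks a higher log2(number of peaks + 1). ARID1A has the most peaks on chr14_GL000225v1_random (42 and 37), while BRG1 has most of the peaks on chrUn_GL000195v1 (15 and 10).

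Antibodies differed in which contigs they marked. On chr14_GL000225v1_random, ARID1A had 42 peaks with vehicle and 37 with T3, TRβ had 7 and 18, PBRM1 had 1 and 13, and BRG1 had 8 and 0. On chrUn_GL000195v1, with both conditions counted together, BRG1 had the most peaks instead of the fewest, and the other 3 antibodies kept their order. BRG1 had 15 and 10 peaks, ARID1A 7 and 4, TRβ 0 and 3, and PBRM1 0 and 2. BRG1 thus held 25 of the 41 peaks of GL000195v1, and 8 of the 126 of GL000225v1. With vehicle alone BRG1 did not have the fewest on GL000225v1, and TRβ and PBRM1 both had 0 on GL000195v1. These counts are descriptions of 1 list each and were not tested.

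Of the 54 contigs, 17 had peaks of all 4 antibodies, 16 of 3, 7 of 2 and 14 of 1. A peak of every list was present on 2 contigs, chrUn_GL000216v2 and chr17_GL000205v2_random. On chrUn_GL000216v2 the counts were 2 and 5 for TRβ (vehicle and T3), 4 and 1 for BRG1, 14 and 10 for ARID1A, and 1 and 5 for PBRM1. On chr17_GL000205v2_random they were 1 and 2, 7 and 5, 8 and 6, and 1 and 4 in the same order. Only 1 list had a peak on 10 contigs, each with 1 peak; among these were chr1_KI270706v1_random, chr1_KI270707v1_random, chr1_KI270709v1_random, chr1_KI270711v1_random and chr9_KI270720v1_random.

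TRβ marked 31 contigs, of which 9 had a peak in both conditions, 3 with vehicle only and 19 with T3 only. These counts were 24, 8 and 3 for BRG1. They were 35, 8 and 4 for ARID1A, and PBRM1 had 7, 1 and 23. The antibodies with a much longer T3 list, TRβ and PBRM1, had most of their contigs with T3 only. Besides the contigs already named, TRβ peaks lay for example on chrUn_KI270754v1 (3 with vehicle and 4 with T3), chr14_GL000194v1_random (2 and 1) and chrUn_KI270744v1 (2 and 1).

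Merging the peaks of all lists gave 376 separate regions on contigs. Of these, 205 (54.5%) were in 1 list, 76 in 2, 45 in 3, 27 in 4, 12 in 5, 8 in 6, 3 in 7 and 0 in all 8. Of 101830 regions on chromosomes, 54487 (53.5%) were in 1 list and 183 (0.180%) in all 8. On chr14_GL000225v1_random, the 126 peaks fell into 56 regions, of which 19 were in 3 or more lists. The 3 regions in 7 lists were on chr17_GL000205v2_random, chr22_KI270733v1_random and chrUn_KI270754v1.

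The region chr17_GL000205v2_random:86162-90338 lacked a peak only in the PBRM1 vehicle list. BRG1 covered it with 1 broad peak in each condition, of 4177 bp with vehicle (signal 44.7, the sum of 16.4 and 28.3 in the 2 libraries) and of 3873 bp with T3 (signal 20.4, from 13 and 7.46). The signal is the authors' value, whose scale is set within a list, so it is used only to rank peaks of 1 list. The other antibodies split the region: ARID1A had 3 peaks in each condition, PBRM1 3 with T3, and TRβ 1 of 622 bp with vehicle and 2 of 911 and 806 bp with T3. The BRG1 vehicle peak ranked 925 of 64393, the highest of any BRG1 vehicle peak on a contig.

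The region chrUn_KI270754v1:14747-15337 also lacked a peak in the PBRM1 vehicle list alone, and it was narrow in every list. Its peaks were 296 and 171 bp wide for TRβ (vehicle and T3), 313 and 189 bp for BRG1, 277 and 207 bp for ARID1A, and 477 bp for PBRM1 with T3. All 7 peaks shared the bases from 14893 to 15022. Signal percentiles within the lists ran from 24.0 for BRG1 with T3 to 92.3 for ARID1A with vehicle.

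The third region, chr22_KI270733v1_random:165986-179757, lay at the end of a contig with ribosomal RNA genes and lacked a peak in the TRβ vehicle list. RefSeq lists 36 ribosomal RNA genes and pseudogenes of the 45S, 18S, 5.8S and 28S kinds. Of these, 12 were placed on the 2 contigs and 14 on chromosome 21. The RefSeq table gives no contig names, so the genes were placed by their known location. The table's pseudogene entries LOC124905332 and LOC124905315, taken to lie at the ends of these contigs, end at 179772 and 161802, just beyond the last peak ends there, 179757 and 161798. RNA45SN4 was taken as KI270733v1:122273-135645 and RNA45SN5 as GL000220v1:105424-118780. Each contig also holds a second, partial repeat.

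With T3, TRβ peaks covered nearly the whole 45S gene in both contig copies, and BRG1 peaks covered little or none of it. At RNA45SN4 the share of the gene under peaks was 0% for TRβ with vehicle and 97.8% with T3, 16% and 4.94% for BRG1, 77.5% and 57.2% for ARID1A, and 0% and 88.7% for PBRM1. At RNA45SN5 it was 18.6% and 97.8% for TRβ, 18.3% and 0% for BRG1, 77.0% and 66.9% for ARID1A, and 0% and 82.2% for PBRM1. TRβ and PBRM1 were high with T3 and low with vehicle. ARID1A was lower with T3 than with vehicle, and BRG1 was low in both and lower with T3. With 1 list in each condition these differences were not tested. They move with the length of the lists for TRβ and PBRM1, whose part was not tested.

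**Figure D3:**
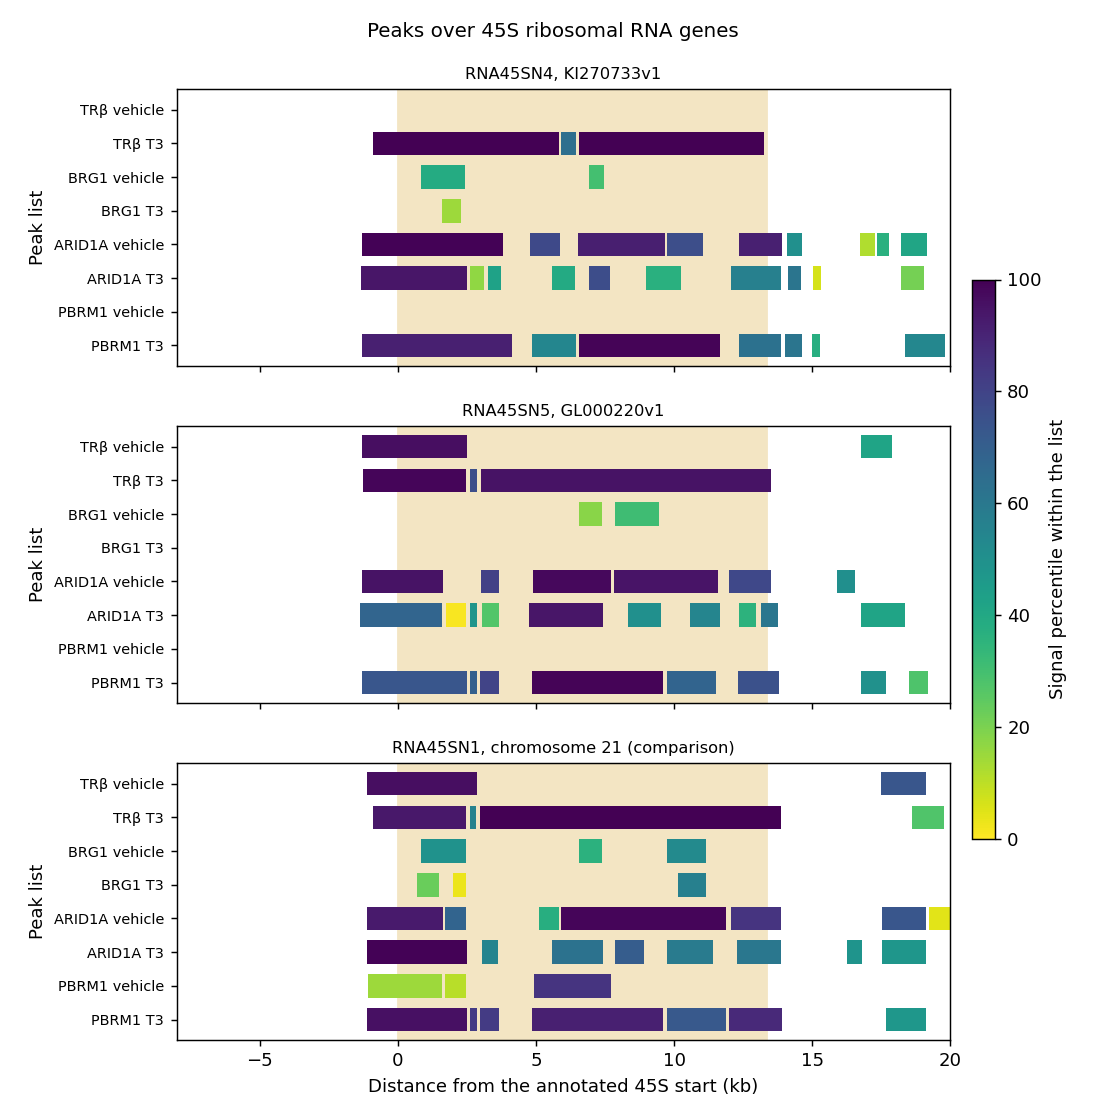
Each bar is 1 peak, placed by its distance in kb from the annotated 45S start, in the 8 lists (rows) at the contig copies RNA45SN4 and RNA45SN5 and, for comparison, at RNA45SN1 on chromosome 21. The shaded band is the 45S gene and the colour is the percentile of the peak's signal within its list. TRβ with T3 spans 97.8% of both contig genes and BRG1 with T3 spans 4.94% and 0%.

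The 3 annotated copies on chromosome 21 showed much the same pattern, and the reads of the copies may not be separable. TRβ with T3 covered 96.9% of RNA45SN2, 86.7% of RNA45SN3 and 97.9% of RNA45SN1. BRG1 with T3 covered 7.77%, 1.20% and 17.6% of these. PBRM1 with T3 covered 87.1%, 77.8% and 87.2%. With vehicle, TRβ covered 0%, 32.0% and 21.4%, and PBRM1 covered 20.5%, 0% and 38.7%, so the vehicle lists of these antibodies had peaks on some copies and none on others.

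Of the 12 ribosomal RNA genes and pseudogenes placed on contigs, all 12 lay under a peak for TRβ with T3 and for PBRM1 with T3. ARID1A peaks lay on 10 with vehicle and 9 with T3, BRG1 peaks on 4 and 1, TRβ vehicle peaks on 1, and PBRM1 vehicle peaks on 0. Of the 14 on chromosome 21 the counts were 4 and 14 for TRβ (vehicle and T3), 8 and 4 for BRG1, 13 and 13 for ARID1A, and 6 and 14 for PBRM1. The other 10 entries, on other chromosomes, had a peak in 0 of 8 lists.

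Over the 18S part, the peaks of TRβ with T3 covered 100% of RNA18SN4, RNA18SN5 and the contig pseudogenes RNA18SP3 and RNA18SP4. PBRM1 with T3 covered 61.2% of RNA18SN4, 36.1% of RNA18SN5, 31.0% of RNA18SP3 and 32.4% of RNA18SP4. ARID1A with T3 covered 4.60% of RNA18SN4, 42.3% of RNA18SN5, 0.963% of RNA18SP3 and 0% of RNA18SP4. BRG1 covered 0% of all 4 in both conditions. Over the 28S genes, TRβ with T3 covered 100% of RNA28SN4 and RNA28SN5, PBRM1 with T3 covered 86.6% and 81.5%, and ARID1A with T3 covered 42.9% and 57.1%. BRG1 covered 0% of RNA28SN4 in both conditions, and 30.1% of RNA28SN5 with vehicle and 0% with T3. Over the short 5.8S genes RNA5-8SN4 and RNA5-8SN5, TRβ and PBRM1 with T3 covered 100% of both, ARID1A with T3 covered 0% and 100%, and BRG1 with T3 covered 0% of both.

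Peaks over the 45S start began at nearly one place, with 1 exception. At RNA45SN5, 5 lists had such a peak, which began from 1277 to 1361 bp before the start. At RNA45SN4, 4 lists had one; it began 1319 bp before the start for ARID1A with T3, 1308 bp for ARID1A with vehicle and for PBRM1 with T3, and 898 bp for TRβ with T3. BRG1 had no peak over the start of either copy. All 5 peaks at RNA45SN5 and all 4 at RNA45SN4 covered the place of the MIR6724-4 hairpin printed above.

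The contig peaks of highest rank were mostly over ribosomal DNA. For TRβ with T3 they were chr22_KI270733v1_random:128818-135513, with a signal of 41.5 (8.82 and 32.7 in the 2 libraries) and rank 11 of 7283, and chr22_KI270733v1_random:170402-179757, with a signal of 34.5 (11.2 and 23.2) and rank 26. Both peaks had a much higher value in the same one of the 2 libraries. For TRβ with vehicle they were chrUn_GL000220v1:104119-107914, with a signal of 25.7 (14.6 and 11.1) and rank 54 of 1437, and chr14_GL000225v1_random:1078-1568, with a signal of 20.1 (10.9 and 9.14) and rank 116.

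For PBRM1 with T3 the highest were chr22_KI270733v1_random:128817-133944 (signal 35.3, rank 366 of 38242) and chrUn_GL000220v1:110294-115025 (signal 34.9, rank 391). For PBRM1 with vehicle they were chr22_KI270733v1_random:174312-176897 (signal 35.1, rank 233 of 9124) and chr22_KI270734v1_random:131330-132738 (signal 18.1, rank 2804). For ARID1A with vehicle they were chr22_KI270733v1_random:120965-126085 (signal 34.1, rank 207 of 49267) and chr22_KI270733v1_random:175729-179714 (signal 25, rank 902). For ARID1A with T3 they were chrUn_GL000220v1:157111-160944 (signal 34.1, rank 331 of 41913) and chrUn_GL000195v1:30691-33197 (signal 30.1, rank 627).

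BRG1 was the antibody with no ribosomal DNA peak among its highest. With vehicle its second peak was chr9_KI270717v1_random:12611-13830 (signal 34.2, rank 2739 of 64393). With T3 its highest were chrUn_GL000195v1:30467-33210 (signal 35.8, rank 1382 of 56001) and chrUn_GL000195v1:66511-68939 (signal 34.0, rank 1695). At the first of these, BRG1 with vehicle had a peak of 2512 bp (signal 33.9), ARID1A had 1 peak of 2507 bp with T3 and 3 shorter ones with vehicle, TRβ had 2 peaks, of 966 and 782 bp, with T3 and none with vehicle, and PBRM1 had 1 of 529 bp with T3 and none with vehicle. At the second, no other antibody had a peak, and BRG1 with vehicle had 3, of 895, 334 and 933 bp. The 2 contigs with ribosomal DNA held 12% and 20% of the contig peaks of TRβ (vehicle and T3), 10.6% and 9.52% of those of BRG1, 12.2% and 20.7% of those of ARID1A, and 11.1% and 24.5% of those of PBRM1. These shares include peaks that lay before the 45S gene. With T3 these were 1 of 1 BRG1 peaks on GL000220v1 and 3 of 5 on KI270733v1. They were 0 of 8 and 1 of 7 for TRβ, 1 of 19 and 4 of 23 for ARID1A, and 0 of 12 and 0 of 13 for PBRM1.

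Contig peaks were narrower than the chromosomal peaks of the same list in all 8 lists. The median widths on contigs and chromosomes were 427 and 885 bp for TRβ with vehicle, and 235 and 723 bp for TRβ with T3. They were 511 and 759 bp for BRG1 with vehicle and 599 and 840.5 bp with T3. For ARID1A they were 370.5 and 669 bp with vehicle and 510 and 770 bp with T3. For PBRM1 they were 575 and 1249 bp with vehicle and 527 and 806 bp with T3. The mean log2 ratio of the medians was -0.86 (SD 0.38 over 8 lists, from -1.62 to -0.49; exact two-sided permutation of signs, p = 0.0078, the smallest 8 lists allow, Benjamini-Hochberg adjusted over 5 tests 0.039). Without chr14_GL000225v1_random the mean was -0.56 (adjusted exact p = 0.0391). The lists share cells and contigs and each antibody gives 2, so these p-values describe the lists.

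Width was not the same on all contigs. The median was 111.5 bp on chrUn_GL000216v2 and 157.5 bp on chr14_GL000225v1_random, whose widest peak was 567 bp. It was 941 bp on chr22_KI270733v1_random and 1177 bp on chrUn_GL000220v1, where the widest peak, of TRβ with T3, was 10496 bp. On chr14_GL000225v1_random the median ran from 116 bp for TRβ with T3 to 312 bp for PBRM1 with T3 among the lists with more than 1 peak there. With all lists pooled, the contigs with ribosomal DNA therefore held broader peaks than these other contigs. Their peaks were not wider than chromosomal ones in every list. For ARID1A with T3 the medians were 611 bp on KI270733v1 and 720 bp on GL000220v1, against 770 bp on chromosomes. For BRG1 with T3 it was 611 bp on KI270733v1, against 840.5 bp. For TRβ with T3 they were 2249 and 2793.5 bp, against 723 bp.

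TRβ with T3 had the most short peaks for its number. Of its 75 contig peaks, 41 (54.7%) were under 300 bp, against 4.19% of its chromosomal peaks, and 17 of the 41 were on chr14_GL000225v1_random and 5 on chrUn_GL000216v2. The share under 300 bp was 36% against 2.27% for TRβ with vehicle, 41.1% against 7.69% for ARID1A with vehicle and 28.6% against 4.17% for ARID1A with T3. For BRG1 it was 24.5% against 7.42% with vehicle and 14.3% against 5.22% with T3. For PBRM1 it was 11.1%, or 1 of 9 peaks, against 0.505% with vehicle, and 17.6% against 3.72% with T3.

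**Figure D4:**
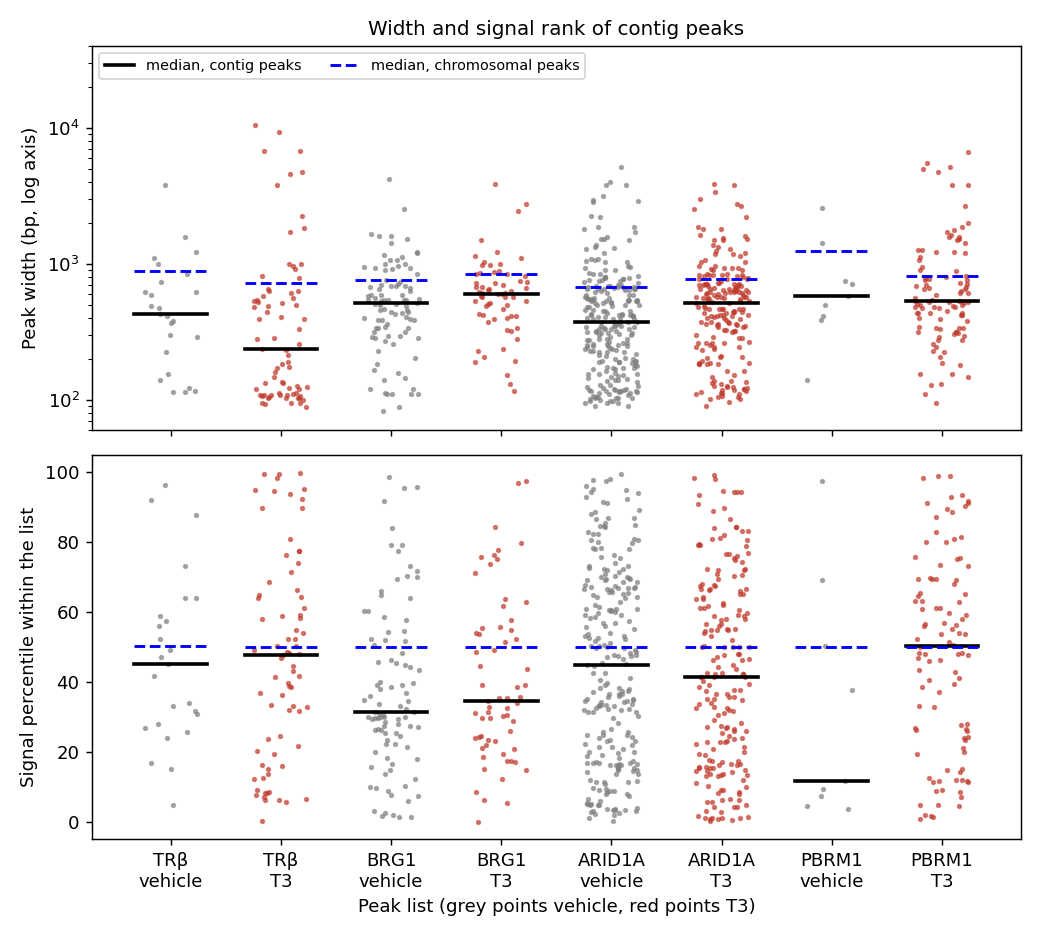
Points are the contig peaks of each list (grey, vehicle; red, T3), with their width in bp on a log axis above and the percentile of their signal within the list below. Solid lines are medians of contig peaks and dashed lines medians of chromosomal peaks, which are wider in all 8 lists, for example 723 against 235 bp for TRβ with T3.

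Contig peaks also ranked lower by signal. The median signal percentile on contigs was below that on chromosomes in 7 of 8 lists, by a mean of 11.7 points (mean difference -11.7, SD 12.6, from -38.5 to 0.260; exact two-sided permutation of signs, p = 0.0156, adjusted over 5 tests 0.039). Median percentiles on contigs were 45.1 and 47.7 for TRβ (vehicle and T3), 31.5 and 34.6 for BRG1, 45 and 41.5 for ARID1A, and 11.6 and 50.3 for PBRM1. The exception was PBRM1 with T3, and the lowest value, for PBRM1 with vehicle, rests on 9 peaks. Without chr14_GL000225v1_random the difference was -8.49 with an adjusted exact p of 0.0586. The call also rests on 1 library: from one library's signal alone the difference was -12.9 (adjusted exact p = 0.0195), and from the other's it was -7.68 (adjusted exact p = 0.176). Among the contigs, the median percentile was 69.6 on chrUn_GL000220v1, 61.1 on chr22_KI270733v1_random, 53.7 on chrUn_GL000195v1, 32.4 on chr14_GL000225v1_random and 30.2 on chrUn_GL000216v2.

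Among the listed peaks, the 2 libraries of a list ranked contig peaks about as differently as chromosomal ones. All had passed the IDR limit of 0.05, which removes peaks whose ranks disagree. The comparison therefore says nothing about agreement at contig peaks that were not listed. The median difference between a peak's percentiles in the 2 libraries was 24.6 points on contigs and 29.0 on chromosomes for TRβ with T3, and 4.24 and 4.80 for TRβ with vehicle. Over 8 lists the mean difference of contig minus chromosomal was -0.38 points (SD 3.17, from -4.36 to 5.65; exact permutation p = 0.758, adjusted 0.758).

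Contig peaks of TRβ were listed in both conditions at a higher share than its peaks as a whole, beyond the counting interval with T3 but not with vehicle. Of the 25 contig peaks with vehicle, 13 (52.0%, exact interval 31.3 to 72.2) overlapped a TRβ peak with T3 by at least 1 bp, against 33.3% of all peaks of that list. Of the 75 with T3, 13 (17.3%, 9.57 to 27.8) overlapped a vehicle peak, against 7.07% of all. For BRG1, 45 of 94 vehicle peaks overlapped, against 70.7% of all, and 45 of 63 T3 peaks, against 76.7%. For ARID1A, 123 of 246 vehicle peaks overlapped, against 48.4% of all, and 123 of 203 T3 peaks, against 53.5%. For PBRM1, 6 of 9 vehicle peaks overlapped, against 75.1% of all, and 7 of 102 T3 peaks, against 20.8%. The share of contig peaks was above that of chromosomal peaks in 4 lists, those of TRβ and ARID1A, and below it in the 4 lists of BRG1 and PBRM1. Over the 8 lists the mean difference was -1.55 points (SD 13.7, from -22.9 to 19.1; exact permutation p = 0.742, adjusted 0.758), and whether the antibodies differ was not tested. With both lists of an antibody held to the length of the shorter, the mean difference was -13.6 (adjusted exact p = 0.195), and under the stricter IDR limit of 0.01 it was -9.44 (adjusted exact p = 0.104).

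On contigs, peaks of the other antibodies overlapped BRG1 less often than on chromosomes in all 6 lists. BRG1 had 94 and 63 contig peaks (vehicle and T3), beside 246 and 203 for ARID1A. On chromosomes BRG1 had 64299 and 55938 peaks, beside 49021 and 41710 for ARID1A. The part of these numbers in the overlap was not tested. Of BRG1's own peaks, overlap with TRβ and with ARID1A was not lower on contigs in either condition, and overlap with PBRM1 was lower in both. For TRβ with T3, 14 of 75 contig peaks (18.7%, exact interval 10.6 to 29.3) overlapped a BRG1 peak of the same condition, against 68.2% of chromosomal and 67.7% of all peaks. For TRβ with vehicle it was 6 of 25 (24.0%, 9.36 to 45.1), against 56.0% of chromosomal and 55.5% of all peaks. For ARID1A it was 48 of 246 with vehicle (19.5%, 14.8 to 25), against 58.0% of chromosomal and 57.8% of all peaks, and 29 of 203 with T3 (14.3%, 9.78 to 19.9), against 64.5% and 64.3%. For PBRM1 it was 5 of 9 with vehicle (55.6%, 21.2 to 86.3), against 81.3% of chromosomal and 81.3% of all peaks, and 21 of 102 with T3 (20.6%, 13.2 to 29.7), against 61.8% and 61.7%.

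**Figure D5:**
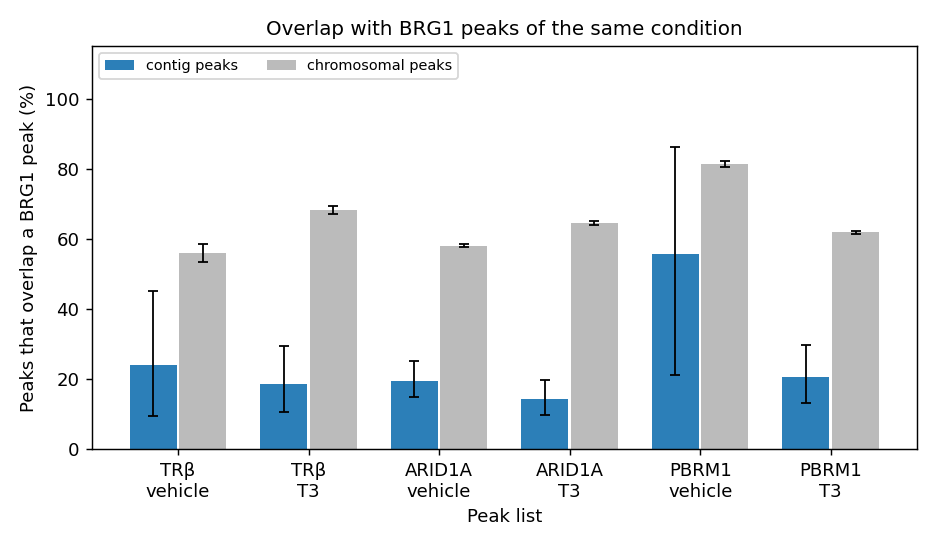
Bars give the percent of peaks that overlap a BRG1 peak of the same condition by at least 1 bp, for contig peaks (blue) and chromosomal peaks (grey) of the 6 lists of the other antibodies, with exact 95% binomial intervals. The blue bar is below the grey one in all 6 lists, from 55.6% against 81.3% for PBRM1 with vehicle to 14.3% against 64.5% for ARID1A with T3.

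Averaged over these 6 lists, overlap with BRG1 was 39.6 points lower on contigs (mean difference -39.6, from -50.2 to -25.8; exact two-sided permutation of signs, p = 0.0312, the smallest 6 lists allow, adjusted over 4 antibodies 0.0625). Comparing each antibody in turn was chosen after the data were seen, and the adjusted value misses 0.05. Overlap with PBRM1 was also lower in 6 of 6 lists (mean difference -12.6, exact permutation p = 0.0312, adjusted 0.0625). Overlap with TRβ was higher on contigs in 5 of 6 lists (mean difference 9.70, p = 0.0625 by the same exact permutation, adjusted 0.0833), as was overlap with ARID1A (mean difference 8.49, p = 0.0938 by the same exact permutation, adjusted 0.0938). Without the 2 ribosomal DNA contigs these 2 differences were 5.36 and 4.69. For ARID1A it was 4.74 without chr14_GL000225v1_random, 4.04 without the PBRM1 lists, 3.58 with lists of equal length and -3.00 under the stricter IDR limit. Overlap with PBRM1 differed by -7.52 with lists of equal length. With overlap defined as 50% of both peaks, the BRG1 difference was -16.4 (adjusted exact p = 0.0417), and within 500 bp it was -40.2 (adjusted exact p = 0.0417). The 6 lists share cells and contigs, each antibody gives 2, and all were set against the same 2 lists of the partner. These p-values therefore describe the lists. The part of peak numbers in these differences was not tested.

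Overlap was also lower for short peaks on chromosomes, where 43.4% of TRβ T3 peaks under 300 bp overlapped BRG1. Among peaks of 300 bp or wider, 11 of 34 contig peaks of TRβ with T3 (32.4%) overlapped BRG1, against 69.3% on chromosomes. For ARID1A with T3 it was 25 of 145 (17.2%) against 65.1%, and for PBRM1 with T3 it was 18 of 84 (21.4%) against 62.5%. Over the 6 lists the difference among these wider peaks was -35.5 points (adjusted exact p = 0.0625).

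Overlap of TRβ with the BAF subunit ARID1A was close to the chromosomal level. With T3, 47 of 75 TRβ contig peaks (62.7%, 50.7 to 73.6) overlapped an ARID1A peak, against 66.3% on chromosomes and 66.2% of all peaks. With vehicle it was 17 of 25 (68.0%, 46.5 to 85.1), against 57.8% on chromosomes and 58% of all peaks. Overlap with PBRM1 was 29 of 75 with T3 (38.7%, 27.6 to 50.6), against 62.4% on chromosomes and 62.1% of all peaks, and 0 of 25 with vehicle (upper bound 13.7%), against 17.8% and 17.5%.

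From the side of the remodeler subunits, contig peaks overlapped TRβ more often than chromosomal ones with T3. It was 60 of 203 for ARID1A (29.6%, 23.4 to 36.3), against 11.4% on chromosomes and 11.5% of all peaks. It was 34 of 102 for PBRM1 (33.3%, 24.3 to 43.4), against 11.9% on chromosomes and 11.9% of all peaks. Of BRG1 peaks it was 12 of 63 (19%), against 8.49% on chromosomes and 8.5% of all peaks. With vehicle, 6 of 94 BRG1 contig peaks overlapped TRβ (6.38%), against 1.32% of all BRG1 peaks. It was 19 of 246 for ARID1A (7.72%), against 1.95% of all, and 0 of 9 for PBRM1, against 2.84% of all. PBRM1 with T3 overlapped ARID1A at 74 of 102 contig peaks (72.5%, 62.8 to 80.9), against 53.3% on chromosomes and 53.4% of all peaks. With vehicle it was 7 of 9, against 62.2% of all. BRG1 contig peaks overlapped ARID1A at 44 of 94 with vehicle, against 38.2% of all, and at 28 of 63 with T3, against 43.5% of all. They overlapped PBRM1 at 5 of 94 with vehicle, against 12.9% of all, and at 19 of 63 with T3, against 39.2% of all. ARID1A contig peaks overlapped PBRM1 at 9 of 246 with vehicle, against 13.9% of all, and at 85 of 203 with T3, against 48.7% of all. The overlaps seen from the 2 sides are not independent. Several subunit peaks can also lie under 1 broad TRβ peak, and the intervals count each of them separately. On GL000220v1 the TRβ peak of 10496 bp with T3 overlapped several ARID1A peaks over ribosomal DNA. Over 6 lists of both conditions, overlap with TRβ was on average 9.70 points higher on contigs, and 5.36 points without the 2 ribosomal DNA contigs. Of TRβ peaks with T3, the share that overlapped each of these subunits was not higher on contigs. With T3, TRβ had 75 contig peaks beside 203 of ARID1A, 102 of PBRM1 and 63 of BRG1. On chromosomes TRβ had 7208 peaks beside 41710, 38140 and 55938 in the same order. The part of these numbers in the overlaps was not tested.

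Peaks with all 3 other antibodies were fewer on contigs for TRβ. With T3, 9 of 75 TRβ contig peaks (12%, 5.64 to 21.6) overlapped BRG1, ARID1A and PBRM1, against 53.7% of chromosomal and 53.3% of all peaks, and 26 (34.7%, 24.0 to 46.5) overlapped none of them, against 24.5% of chromosomal and 24.6% of all peaks, a difference at the edge of the counting interval. With vehicle, 0 of 25 overlapped all 3, against 15.7% of chromosomal and 15.4% of all peaks, and 6 (24%, 9.36 to 45.1) overlapped none, against 33.9% of chromosomal and 33.7% of all peaks, which lies within the interval. For BRG1 it was 0 of 94 with vehicle, against 0.394% of all peaks, and 8 of 63 with T3, against 6.85%. For ARID1A it was 0 of 246, against 0.52%, and 9 of 203 with T3, against 9.24%. For PBRM1 it was 0 of 9, against 2.51%, and 10 of 102 with T3, against 10.3%. The share was lower on contigs than on chromosomes in 7 of 8 lists, and BRG1 with T3 was the exception. All vehicle lists had 0 such contig peaks, and these values are linked. Each needs peaks of the same antibodies at 1 place, and 0 of 25 TRβ contig peaks with vehicle overlapped PBRM1. For BRG1 and ARID1A with vehicle the differences were only -0.395 and -0.522 points. The permutation still counts each list as 1 unit. Over 8 lists the mean difference was -7.53 points (SD 15.1, from -41.7 to 5.85; exact permutation p = 0.188, adjusted 0.312), and without the TRβ lists it was -0.48.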

How the data were processed

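Per the labels' protocols, nuclei of 500000 cells went into each of 17 CUT&RUN libraries, which gave 8 peak lists on hg38. CASAVA 1.7, Trim Galore, Bowtie2 and MACS2 appear in the submitters' processing notes without parameters. The sources used here give no filter on repeats, excluded regions or reads that align to several places, and do not say whether IgG served as a control. The IgG library was not analysed here. Each deposited list has the layout of the IDR method, which keeps peaks whose rank agrees between 2 libraries. The signal value that the authors give for a peak equals the sum of its signal values in the 2 libraries. The authors' −log10 of the irreproducible discovery rate puts all peaks at a rate of at most 0.05, and the deposited score rescales that rate. The interval used spans both libraries' intervals. The files do not say which column is which replicate, and 16 columns with summits per library were not used.

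Contig peaks were those on sequences other than chromosomes 1 to 22, X and Y. Signal was ranked within lists. The list was the unit: each gave 1 contig-minus-chromosomal difference, tested by exact two-sided sign permutation with Benjamini-Hochberg adjustment, leaving out lists with under 5 contig peaks. Intervals are Clopper-Pearson at 95%, and they cover counting error only. Overlap needed 1 bp. Named were contigs in all 8 lists, contigs with TRβ peaks, the 5 with most peaks, up to 5 of those in 1 list, and the 2 highest peaks of each list; GL000195v1 regions, the regions in 7 lists and further TRβ contigs were chosen after their values were seen. Members and lists were chosen with earlier results of these data known. Gene positions and hairpins came from RefSeq (GRCh38.p14). The scripts were tested on simulated data. Python 3.11.15, numpy 2.4.6, pandas 2.3.3, scipy 1.17.1 and matplotlib 3.10.9 were used.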

Additional observations from a re-analysis of the deposited data

Results flagged for a closer look

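The percent of peaks on contigs moved in opposite directions with T3. The log2 ratio of T3 over vehicle was -0.76 for TRβ, -0.38 for BRG1 and -0.044 for ARID1A, and 1.44 for PBRM1. The PBRM1 value rests on 9 contig peaks with vehicle, and each antibody has 1 list per condition, so the difference between antibodies was not tested.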

How the results depend on the processing

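No paired analysis was possible because each group gave 1 list, in which its 2 libraries are already combined. At an IDR of at most 0.01, TRβ with vehicle and PBRM1 with vehicle had 1 contig peak each and left the tests by construction. The TRβ vehicle share was then 0.495%, the width difference -0.74 and the signal rank difference -15.7 (adjusted exact p = 0.0781 for both, with 6 lists), and overlap with ARID1A turned to -3.00. Without chr14_GL000225v1_random, the contig shares were 0.785% for TRβ with T3, 0.414% for ARID1A with vehicle and 0.396% with T3, and the signal rank difference was -8.49. Without the 2 ribosomal DNA contigs (added after seeing the data), they were 0.439% for ARID1A with vehicle, 0.385% with T3 and 0.201% for PBRM1 with T3, and the mean log2 ratio of T3 over vehicle turned to -0.061. With reciprocal overlap of 50%, the difference in the share listed in both conditions turned to 1.41, and overlap differences were -16.4 for BRG1, 11.2 for ARID1A and -5.26 for PBRM1 (adjusted exact p = 0.0417 for these 3). Within 500 bp they were -40.2 for BRG1, -14.0 for PBRM1 and 12.3 for TRβ (adjusted exact p = 0.0417 each). These comparisons by antibody were chosen after the data were seen, and their lists share cells and contigs.

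When 1 antibody was left out, or 1 library's columns were taken in every list, the width difference ran from -0.98 to -0.71. The signal rank difference ran from -14.3 to -7.68. With 6 lists no single comparison can pass 0.05 after adjustment over 5 unless others are as low, and both calls were lost when any antibody was left out. The difference in the share listed in both conditions ran from -6.97 to 2.63 and that in library rank from -1.66 to 0.479, turning in sign without BRG1 or PBRM1 for the former and without TRβ or PBRM1 for the latter. Merging overlapping peaks and keeping only unlocalized and unplaced contigs could change no value, since no list had overlapping peaks and there was no other kind of contig, and they say nothing about stability.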
